A study of Mus musculus with 6 samples.

Results

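The transcripts described here encode 9 proteins of the epithelial tight junction: the claudins Cldn1, Cldn3, Cldn4, Cldn7, Cldn8 and Cldn12, occludin (Ocln), the scaffold ZO-1 (Tjp1) and the adhesion molecule JAM-A (F11r). They were taken by gene symbol from a table of 23337 genes, and the list was drawn up with earlier results of these data known. All 9 were in the table with at least 1 read in every library. They were measured by RNA sequencing in tumour cells of mouse ear epidermis labelled as basal cell carcinoma (BCC), a skin tumour of the Hedgehog pathway. The Yap knockout group (3 libraries) carried the alleles R26-SmoM2/+ and Yapfl/fl with K14CreER, and the Wt group (3 libraries) carried R26-SmoM2/+ with K14CreER and unfloxed Yap. Both groups were therefore tumours with SmoM2, an active form of Smoothened, and Wt here is wild type for Yap alone. K14CreER is a tamoxifen-dependent Cre recombinase under a keratin 14 promoter, so cells that do not use this promoter keep intact alleles, and an animal with the floxed allele can keep cells with Yap. Tamoxifen was given at 4 weeks of age, and the stage label of every library is 6 weeks after it. YAP, encoded by Yap1, is a transcriptional co-activator that works with TEAD factors, and the question addressed is whether the tight junction transcripts differ between tumours without and with it.

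Tight junctions seal the space between neighbouring epithelial cells. Claudins and occludin span the membrane, and claudins form the strands whose composition sets which ions and solutes pass. ZO-1 binds their tails inside the cell and links them to actin, and JAM-A, an immunoglobulin-like protein, joins them to polarity complexes that place the junction towards the apical side. In the epidermis functional tight junctions lie in the granular layer, claudin-1 is needed for the water barrier there, and several of these transcripts are also made in the layers below.

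Recovered reads assigned to genes ranged from 15572640 to 25179110 in the knockout libraries and from 15405490 to 25260431 in the Wt libraries. All values are normalized counts, read counts divided by 1 size factor per library. Yap1, the targeted gene, had 591, 773 and 1764 normalized counts in knockout libraries 1, 2 and 3, against 5765, 6004 and 5573 in the Wt libraries, so the groups did not overlap and knockout library 3 kept the most. Basal keratins were high in each library (Krt5 from 223225 to 347189 normalized counts). Markers of endothelium summed to 41.2 to 107, of immune cells to 85.8 to 527 and of fibroblasts to 1612 to 9427 normalized counts. Of the endothelial markers, Pecam1 had 25.9 to 83.2 normalized counts and Emcn had 0 in every library. Library 3 of each group stood apart from the others. It carries a label code that begins with DM24, whereas libraries 1 and 2 carry codes that begin with DM22. In the DM24 libraries Xist had 58654 and 59594 normalized counts, against 8.62 to 15.1 in DM22, while the Y-linked Ddx3y had 0 reads in both, against 3202 to 3426 normalized counts in DM22. The DM24 libraries were also the shallowest, and sex, depth and whatever the code marks cannot be told apart here. The labels do not state that the libraries came from separate animals, and the p-values refer to the spread of these 6 libraries.

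The study's title names YAP-TEAD and the AP-1 subunit c-JUN, so the sequence before the start sites was searched for the letters GGAATG (a TEAD-type motif, on both strands) and TGANTCA (an AP-1-type motif, which reads the same on both strands). RefSeq promoter windows on GRCm38.p6, from 250 bases before to 50 bases after a start, numbered 12 for 8 of the 9 genes. Cldn8 had no window. The windows with a match are those of Cldn4, F11r and Cldn7, and they are shown because they are the ones of this group of genes that hold the letters. Each is given on the coding strand for the 250 bases before the start site, with the matched letters in capitals. The Cldn4 sequence is chr5:134946935-134947184 (minus strand), that of F11r chr1:171437311-171437560 (plus strand) and that of Cldn7 chr11:69964529-69964778 (plus strand).
Cldn4: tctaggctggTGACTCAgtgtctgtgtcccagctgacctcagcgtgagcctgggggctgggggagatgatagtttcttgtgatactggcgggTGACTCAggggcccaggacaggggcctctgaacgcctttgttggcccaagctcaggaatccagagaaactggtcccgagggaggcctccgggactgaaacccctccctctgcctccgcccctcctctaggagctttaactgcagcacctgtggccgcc
F11r: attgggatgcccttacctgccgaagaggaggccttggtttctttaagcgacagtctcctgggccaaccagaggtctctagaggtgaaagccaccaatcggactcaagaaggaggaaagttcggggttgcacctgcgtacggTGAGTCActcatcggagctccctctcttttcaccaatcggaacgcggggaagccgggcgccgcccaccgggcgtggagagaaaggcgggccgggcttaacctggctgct
Cldn7: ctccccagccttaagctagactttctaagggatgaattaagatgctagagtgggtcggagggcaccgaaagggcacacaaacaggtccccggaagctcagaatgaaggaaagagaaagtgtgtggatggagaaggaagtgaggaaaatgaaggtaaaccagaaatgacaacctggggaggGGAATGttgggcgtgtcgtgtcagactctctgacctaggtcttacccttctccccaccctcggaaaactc
Cldn4 held TGACTCA at 2 places, which start at positions -240 and -158 from the start site. F11r held TGAGTCA once, at -109, and Cldn7 held GGAATG once, at -70, in 1 of its windows. No matched letters overlapped. Over all 32851 windows of this length in the same source, 7.81% held TGANTCA, 0.460% held it at 2 or more places and 14.7% held GGAATG. These are letter matches, and binding was not measured. In the comparisons below limma called none of the 3 genes with a match between knockout and Wt. It called 0 of all 13671 tested genes, so this outcome says nothing about the motifs.

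None of the tight junction transcripts passed the test between knockout and Wt tumours. Of the 9 members, 8 had a mean of at least 10 normalized counts and were tested, and limma with Benjamini-Hochberg adjustment over 13671 genes called 0 of them. The same test called 0 of all genes (0%), and 759 genes (5.55%) against 0 members had an unadjusted p under 0.05. The count model edgeR on the recovered reads also called 0 genes (761 at an unadjusted p under 0.05). The count model DESeq2 called 67 genes (0.490%), and none was a member. Yap1 itself had a log2 difference of -2.63 (SE 0.39) with limma, which did not pass (adjusted p = 0.517). With DESeq2 its difference was -2.47 (SE 0.38), which passed (adjusted p = 1.4e-07). The log2 difference was below 0 for 5 of the tested members and above 0 for 3, with a median of -0.038, beside -0.0034 over all tested genes. In none of the 9 were the knockout and Wt values apart without overlap, while 11.0% of all tested genes were. The plot of each transcript by library shows the overlap gene by gene.

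**Figure D1:**
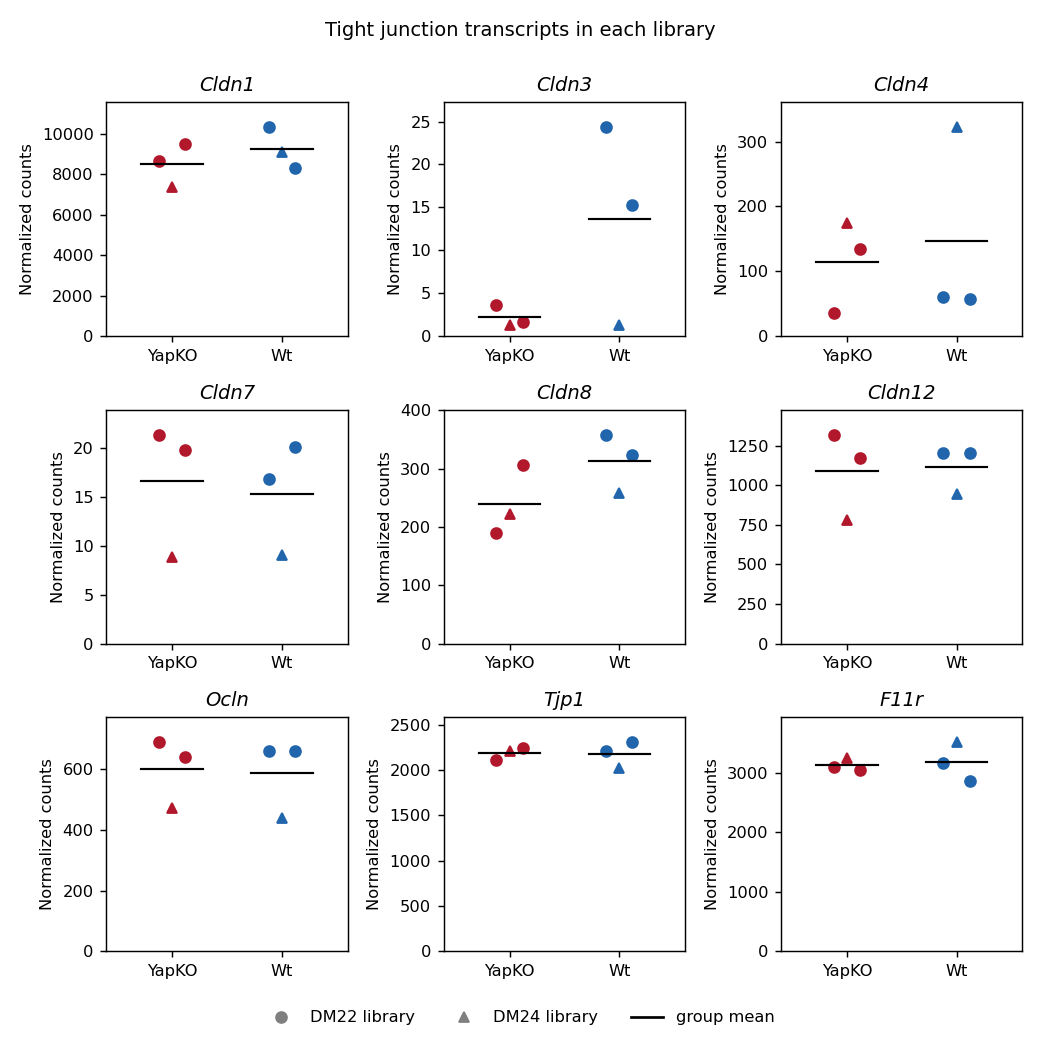
Normalized counts of the 9 tight junction transcripts in the 3 Yap knockout (YapKO) and 3 Wt libraries, 1 point per library, with circles for DM22 and triangles for DM24 libraries and a line at each group's mean. The axes start at 0 and differ between panels. In every panel the groups overlap, and in the Cldn3, Cldn7, Cldn12 and Ocln panels the triangle is the lowest point of both groups.

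Claudin-1 is the barrier claudin of the epidermis, and Cldn1 (chromosome 16, 26356642 to 26371841, minus strand, GRCm38) was its most abundant transcript here. It had 8649, 9508 and 7386 normalized counts in the knockout libraries, against 10330, 8279 and 9080 in the Wt libraries. Knockout library 2 lay above Wt libraries 2 and 3, so the groups overlapped. The means were 8514 ± 1068 in knockout and 9229 ± 1034 in Wt (SD, n = 3 each). Knockout minus Wt gave a log2 difference of -0.12 (standard error, SE, 0.13), with a 95% interval (on the log2 scale) from -0.43 to 0.19 (limma, adjusted p = 0.995).

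Cldn8 (chromosome 16, 88560828 to 88563183, minus strand), which encodes a claudin known in kidney as a paracellular cation barrier, had the largest difference of the tested members. It had 189, 306 and 223 normalized counts in the knockout libraries, against 358, 323 and 259 in the Wt libraries. Knockout library 2 exceeded Wt library 3, and the other knockout libraries lay below every Wt library. The means were 239 ± 60.1 in knockout and 313 ± 50.3 in Wt (SD, n = 3 each). The log2 difference was -0.40 (SE 0.22), with a 95% interval from -0.93 to 0.12 and an unadjusted p of 0.110 (limma, adjusted p = 0.933). Taken between libraries of the same number, the differences were -0.92, -0.08 and -0.22, below 0 in 3 of 3, though the labels do not state that equal numbers mark pairs. The sign stayed below 0 when any 1 library was left out (-0.60 to -0.25), and no alternative test called the gene.

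Cldn4 (chromosome 5, 134945119 to 134946934, minus strand) encodes a claudin that tightens junctions and is a receptor for Clostridium perfringens enterotoxin. It was the most variable of the tested members. It had 34.8, 134 and 174 normalized counts in the knockout libraries, against 59.7, 57.5 and 323 in the Wt libraries. The highest value of each group was that of its DM24 library, and the knockout values lay both below and above those of Wt libraries 1 and 2. The means were 114 ± 71.8 in knockout and 147 ± 152 in Wt (SD, n = 3 each). Its log2 difference was -0.15 (SE 0.88), and the 95% interval ran from -2.28 to 1.99 (limma, adjusted p = 0.999). The difference was 0.22 in the DM22 libraries alone, 0.67 without Wt library 3 and 0.55 without knockout library 1, so its sign rests on single libraries.

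The data on Cldn3 (chromosome 5, 134986214 to 134987472, plus strand), another enterotoxin-binding claudin, are sparse. It had 4, 2 and 1 reads in the knockout libraries, against 29, 16 and 1 in the Wt libraries, or 3.57, 1.65 and 1.26 normalized counts in knockout against 24.4, 15.3 and 1.30 in Wt. The 2 DM22 Wt libraries were high, and the DM24 Wt library was as low as the knockout libraries, so the groups overlapped. Summed over libraries there were 7 reads in knockout and 46 in Wt, a depth-adjusted ratio of knockout over Wt of 0.146. Its exact 95% interval runs from 0.0557 to 0.326 and covers counting error only, not the spread between libraries. All but 1 of the 46 Wt reads came from the DM22 libraries. With a mean of 7.91 normalized counts Cldn3 stayed under the filter of the main test. Without the filter limma gave a log2 difference of -1.71 (adjusted p = 0.944). In the DM22 libraries alone, 2 against 2, it gave -2.55 with a standard error of 0.57 and an unadjusted p of 0.00723, and an adjusted p of 0.295, so the difference did not pass the threshold. Where 0 reads are seen, up to 3 could have been expected, which at these depths is 2.47 to 3.90 normalized counts. The DM24 values of both groups and the value of knockout library 2 are under this level. The gene shares 40 exonic bases with the antisense gene Wbscr25, and since the library kit does not mark strand, reads there cannot be assigned to either.

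Cldn7 (chromosome 11, 69964779 to 69967885, plus strand) encodes a claudin found along the lateral membrane in many epithelia, and it was also low. It had 21.4, 19.8 and 8.85 normalized counts in the knockout libraries, against 16.8, 20.1 and 9.10 in the Wt libraries, from 7 to 24 reads a library. The groups overlapped almost fully, and the DM24 library was the lowest of both. The log2 difference was 0.09 (SE 0.49) with a 95% interval from -1.09 to 1.27 (limma, adjusted p = 0.999).

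Cldn12 (chromosome 5, 5489537 to 5514958, minus strand), a claudin that lacks the usual binding motif for scaffold proteins at its tail, had 1320, 1173 and 778 normalized counts in the knockout libraries, against 1203, 1205 and 942 in the Wt libraries. The knockout libraries held both the highest and the lowest value. The means were 1090 ± 280 in knockout and 1116 ± 151 in Wt (SD, n = 3 each), a log2 difference of -0.06 with a 95% interval from -0.59 to 0.47 (limma, adjusted p = 0.999).

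Ocln (chromosome 13, 100496507 to 100552718, minus strand) encodes occludin, which sits in the strands and takes part in the regulation of the barrier. It had 688, 641 and 473 normalized counts in the knockout libraries, against 660, 658 and 437 in the Wt libraries. In each group the DM24 library was the lowest, and the other 4 values lay close together. The means were 600 ± 113 in knockout and 585 ± 128 in Wt (SD, n = 3 each), a log2 difference of 0.04 with a 95% interval from -0.48 to 0.57 (limma, adjusted p = 0.999).

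The adhesion molecule and the scaffold were the most even of all. F11r (chromosome 1, 171437535 to 171464603, plus strand) had 3097, 3048 and 3241 normalized counts in the knockout libraries, against 3158, 2858 and 3510 in the Wt libraries. The 3 knockout values fell inside the range of the Wt values. The log2 difference was -0.02 (SE 0.09) with a 95% interval from -0.24 to 0.20 (limma, adjusted p = 0.999). Tjp1 (chromosome 7, 65296165 to 65527781, minus strand) had 2113, 2243 and 2205 normalized counts in the knockout libraries, against 2208, 2306 and 2019 in the Wt libraries. Its coefficient of variation over the 6 libraries was 4.66%, and the groups overlapped. Between the groups the log2 difference was 0.01 (SE 0.07) with a 95% interval from -0.17 to 0.19 (limma, adjusted p = 1.0). The intervals of these genes and of Cldn1 are the narrowest of the 8 tested, as the plot of the differences shows.

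**Figure D2:**
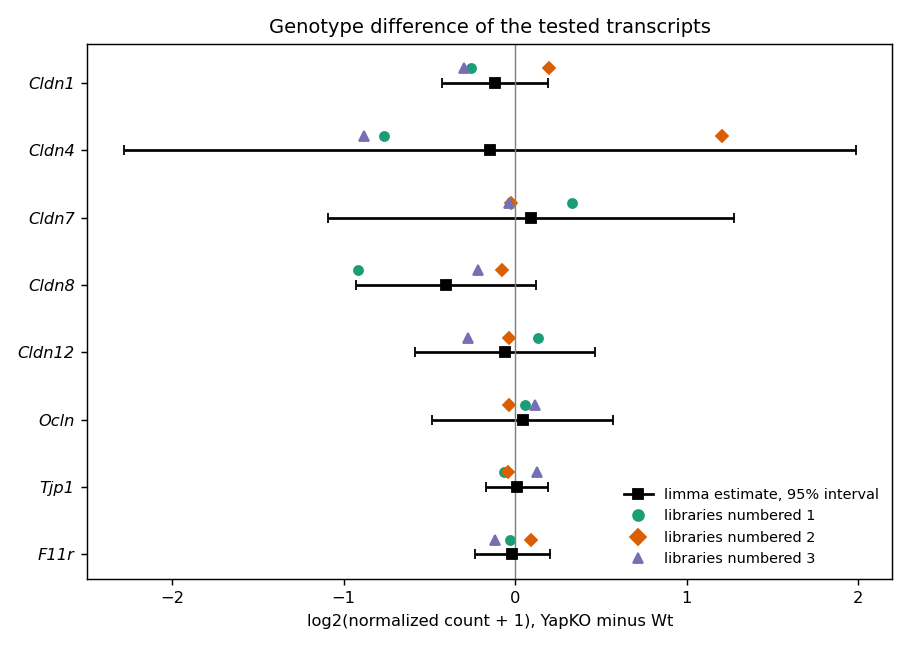
Difference of the 8 tested transcripts, YapKO minus Wt, in log2(normalized count + 1). Black squares and bars are the limma estimate with its 95% interval, and coloured points are the differences between libraries of the same number. Every interval holds 0, from the narrow one of Tjp1 (-0.17 to 0.19) to that of Cldn4 (-2.28 to 1.99).

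Within the DM22 libraries alone, 2 against 2, limma gave log2 differences of -0.50 for Cldn8, -0.028 for Cldn1 and 0.010 for Ocln, and those of Cldn12, Tjp1 and F11r were 0.048, -0.052 and 0.032. It called 2 of 13529 genes (0.0148%) and none of the 9 members, all of which passed the filter there. The DM24 libraries, 1 against 1, allow no test, and their differences ranged from -0.88 for Cldn4 to 0.13 for Tjp1. DESeq2 with the replicate number as a block called 169 genes (1.24%), with a term for the code series 297 genes (2.17%) and in the DM22 libraries alone 265 genes (1.96%), and none of these was a member. A fit of whether the genotype difference itself changed between the code series rests on 1 library of each group in DM24. It called Yap1 with DESeq2 (1.45, adjusted p = 0.000889, among 0.249% of genes) and not with limma (1.46, adjusted p = 0.867, 0% of genes called, 748 genes at an unadjusted p under 0.05). Neither tool called a member, and with so few libraries that does not show that the members' differences were alike in both series.

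Per length, the order of the transcripts was almost the same in both groups. Levels here are normalized counts per kilobase of exon, which allows genes to be set beside each other. Cldn1 led with 1759 ± 221 in knockout and 1907 ± 214 in Wt (SD, n = 3 each), followed by F11r with 1175 ± 37.7 in knockout and 1192 ± 123 in Wt. Next came Tjp1 with 280.0 ± 8.59 in knockout and 278.8 ± 18.7 in Wt, and Cldn12 with 258 ± 66.3 in knockout and 264 ± 35.8 in Wt. Then followed Ocln with 142 ± 26.7 in knockout and 139 ± 30.3 in Wt, Cldn8 with 102 ± 25.5 in knockout and 133 ± 21.4 in Wt, and Cldn4 with 62.9 ± 39.6 in knockout and 80.7 ± 83.9 in Wt. Cldn7 was at 8.56 ± 3.51 in knockout and 7.88 ± 2.90 in Wt, and Cldn3 at 1.72 ± 0.980 in knockout and 10.9 ± 9.24 in Wt. The ranges of Tjp1 and Cldn12, of Ocln and Cldn8, and of Cldn8 and Cldn4 overlapped in both groups, so those neighbours are not ordered beyond their spread. Cldn7 lay above Cldn3 in every knockout library, while in Wt their ranges overlapped. The steps below Cldn1, F11r, Cldn12 and Cldn4 were without overlap in both groups.

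**Figure D3:**
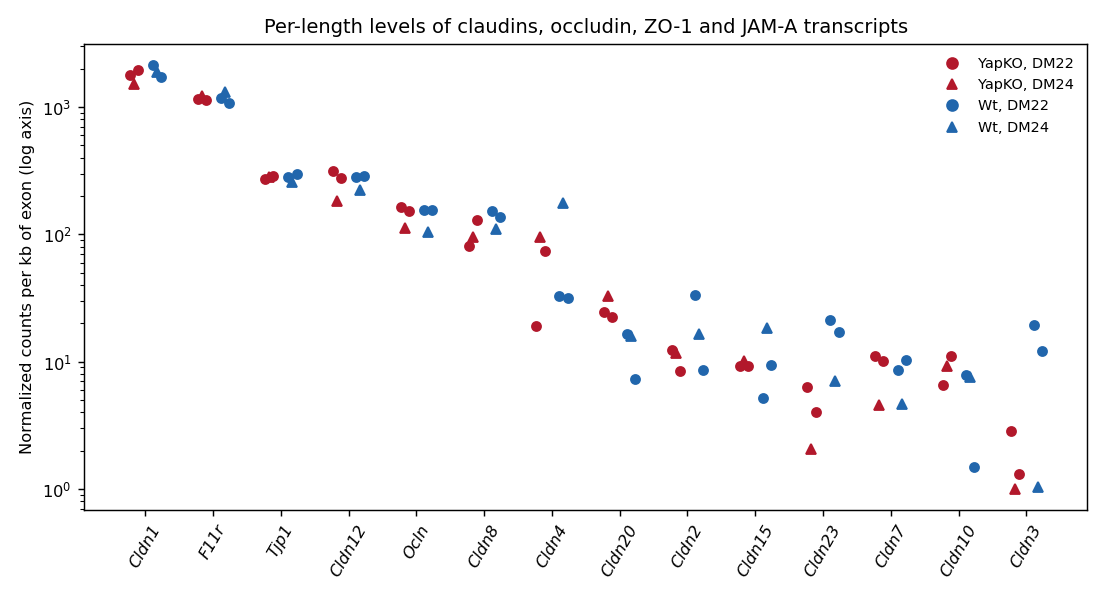
Normalized counts per kilobase of exon, on a log axis, of the claudins with reads in every library and of F11r, Tjp1 and Ocln, ordered by mean, in YapKO (red, left) and Wt (blue, right) libraries, with circles for DM22 and triangles for DM24. Cldn1 has means of 1759 in YapKO and 1907 in Wt, and the claudins to the right of Cldn4 lie far below Cldn1.

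The claudin pool of these tumours was mostly Cldn1. Over 23 claudin rows, of which 11 had reads in every library and 4 had none, Cldn1 made up 78.5%, 78.0% and 76.7% of the per-length sum in the knockout libraries, against 78.2%, 76.5% and 75.9% in the Wt libraries. The means were 77.7 ± 0.904% in knockout and 76.9 ± 1.21% in Wt (SD, n = 3 each), and the values overlapped (exact permutation test, two-sided, p = 0.4). Cldn12 was the next, with 11.3 ± 2.25% in knockout and 10.7 ± 1.88% in Wt (p = 0.7 by the same exact test). Cldn8 made up 4.48 ± 0.847% in knockout and 5.38 ± 0.856% in Wt (exact permutation p = 0.3). Cldn4 ranged most, with 0.841%, 2.92% and 4.83% in the knockout libraries, against 1.21%, 1.42% and 7.19% in the Wt libraries (exact permutation p = 0.8). Cldn7 made up 0.371 ± 0.130% in knockout and 0.322 ± 0.136% in Wt, and Cldn3 0.0757 ± 0.0423% in knockout and 0.432 ± 0.348% in Wt. The smallest p that 3 against 3 allows is 0.1, and over the 6 claudins every adjusted p was 0.8. The 17 other claudins together made up 2.20% to 4.16% of the sum. The sum itself was 2276, 2519 and 1988 in the knockout libraries, against 2727, 2235 and 2470 in the Wt libraries, and these values overlapped. A row named Cldn25 was left out because RefSeq gives that name as a synonym of Cldnd1, a claudin-domain gene. The rows Cldn26 and Cldn27, synonyms of Tmem114 and Tmem235 in RefSeq, were left out for the same reason. With Cldn25 counted, at 23.4% to 32.4% of the sum, the difference in the Cldn1 share was -1.69 percentage points in place of 0.84.

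Ocln and Cldn12 were lower in the DM24 libraries than in the DM22 libraries of both genotypes. This comparison, chosen after the values were seen, sets the 2 DM24 libraries against the 4 DM22 libraries with genotype as a term. Limma called 923 genes (6.75%), of which 556 were lower in DM24 (4.07%), and 2 of the 8 tested members, Ocln and Cldn12, were among the lower ones. Ocln had 473 and 437 normalized counts in the DM24 libraries, against 641 to 688 in the DM22 libraries, with no overlap. Its log2 difference was -0.54 (SE 0.08) with a 95% interval from -0.74 to -0.34 (limma, adjusted p = 0.0249), and the differences within the genotypes were -0.49 in knockout and -0.59 in Wt. Cldn12 had 778 and 942 normalized counts in the DM24 libraries, against 1173 to 1320 in the DM22 libraries. Its log2 difference was -0.52 (SE 0.10) with a 95% interval from -0.76 to -0.28 (limma, adjusted p = 0.0406), and the differences were -0.68 in knockout and -0.35 in Wt. Limma called 2.68% of genes higher in DM24, and no member. Ocln and Cldn12 were also called by edgeR (6.39% of genes, 3.41% lower and 2.98% higher) and by DESeq2 (15.0% of genes, 8.27% lower and 6.77% higher). Both calls were lost without knockout library 1, 2 or 3 or without Wt library 3, with differences from -0.59 to -0.49 for Ocln and from -0.68 to -0.35 for Cldn12, and both held without Wt library 1 or 2.

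Cldn4 went the other way and had 174 and 323 normalized counts in the DM24 libraries, against 34.8 to 134 in the DM22 libraries. The series did not overlap, and the log2 difference was 1.89 with an SE of 0.57 (limma, adjusted p = 0.10, with Benjamini-Hochberg adjustment as before), with 1.34 in knockout and 2.44 in Wt. The difference was past the threshold with DESeq2 (1.82, adjusted p = 0.0139) and, without knockout library 2, with limma (2.38, adjusted p = 0.0252), but not with edgeR (adjusted p = 0.111). Cldn7 had 8.85 and 9.10 normalized counts in the DM24 libraries, against 16.8 to 21.4 in the DM22 libraries, a log2 difference of -1.04 that did not pass (limma, adjusted p = 0.0981). Cldn1, Cldn8, Tjp1 and F11r had differences of -0.16, -0.25, -0.07 and 0.15, none of which passed. Among all tested genes 39.2% did not overlap between the series, so a lack of overlap alone sets no gene apart. Of the members, Cldn3, Cldn4, Cldn7, Cldn12, Ocln and F11r did not overlap.

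**Figure D4:**
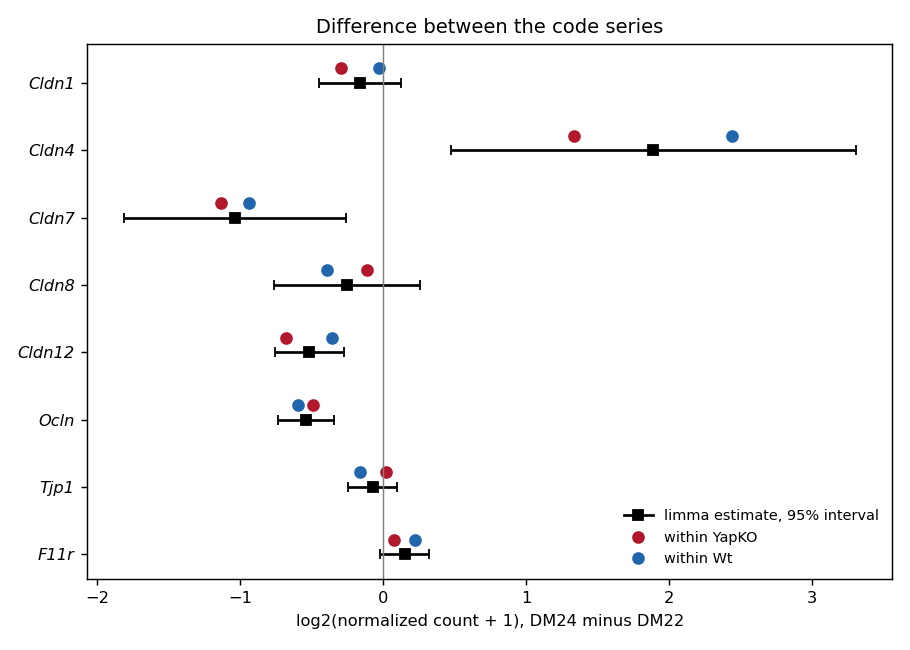
Difference of the 8 tested transcripts, DM24 minus DM22 libraries, in log2(normalized count + 1). Black squares and bars are the limma estimate with genotype as a term and its 95% interval, and points are the differences within YapKO (red) and within Wt (blue). Cldn4 (1.89) lies to the right, and Cldn7 (-1.04), Ocln (-0.54) and Cldn12 (-0.52) lie to the left, each with an interval that leaves out 0. Of these, only Ocln and Cldn12 passed the limma threshold after adjustment.

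Other transcripts moved along the same line. Of 16 tested markers of granular differentiation, 13 lay above 0 and 5 were called higher in DM24 (Tgm1, Dsc1, Grhl3, Klk5 and Klk7). The median log2 difference was 1.10, beside -0.00017 over all tested genes. The list summed to 33028, 39223 and 114384 normalized counts in knockout libraries 1, 2 and 3, against 34027, 46488 and 53508 in the Wt libraries. Of 10 sebaceous markers 9 lay above 0 and 5 were called higher, with a median of 1.71. Their sums lay closer together, at 18931, 19380 and 21744 normalized counts in the knockout libraries, against 16684, 19699 and 21203 in the Wt libraries. Of 16 genes of the stress response to tissue dissociation 1 lay above 0 and 10 were called lower, with a median of -1.61. That list summed to 556685, 498905 and 146613 normalized counts in the knockout libraries, against 738902, 839742 and 295352 in the Wt libraries. Limma made these calls with Benjamini-Hochberg adjustment over all genes, of which it called 2.68% higher and 4.07% lower in DM24. The stress genes were also below 0 between knockout and Wt in 16 of 16 cases, with a median of -0.61 and 0 called by limma. Their list includes Fos, Fosb, Junb and Jun, which encodes the c-JUN of the study's title, and whether it marks tissue handling here was not tested. The sebaceous markers were above 0 between knockout and Wt in 10 of 10 cases, with a median of 0.27 and 0 called. Fibroblast markers summed to 7188, 6181 and 1612 normalized counts in the knockout libraries, against 5402, 9427 and 3237 in the Wt libraries. That sum is lower in DM24 through Dcn, the 1 of 5 tested markers that fell, while the other 4 lay above 0 and the median was 1.30. Melanocyte markers summed to 379 to 735 in knockout and 572 to 617 in Wt. The part of these lists in the values of Ocln, Cldn12 and Cldn4 was not tested. In bulk RNA, fewer cells of a type and less RNA per cell cannot be told apart.

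None of the other tight junction genes passed the test between the genotypes with limma. The table held 56 of them, of which 38 were tested: 6 rows of the list of other claudins, 7 other transmembrane proteins and 25 scaffold and polarity genes. The 6 rows include Cldn25, which was left out of the claudin shares as a synonym of Cldnd1. That row had a mean of 2333 normalized counts over the libraries and a log2 difference of 0.08 (SE 0.09, limma). Without a term, 0 of the 38 were called by limma, edgeR or DESeq2. With limma Prkci and Cldn23 had unadjusted p-values under 0.05 (0.0209 and 0.0225), as had 5.55% of all tested genes. Of the 38, 19 lay above 0 and 19 below, with a median of 0.0039. The named examples are the scaffold and polarity genes with the largest differences among those without overlap and with a mean of at least 50. Magi1, a membrane scaffold, had 1744, 1621 and 1405 normalized counts in the knockout libraries, against 1789, 2243 and 1781 in the Wt libraries (log2 difference -0.28, SE 0.13, limma adjusted p = 0.912). Prkci, an atypical protein kinase C of the Par polarity complex, had 4019, 3923 and 3824 in the knockout libraries, against 4946, 4970 and 4219 in the Wt libraries (log2 difference -0.26, SE 0.09, limma adjusted p = 0.814), and DESeq2 with a code series term called it (-0.26, adjusted p = 0.0485). Its relative Prkcz had 111, 120 and 105 in the knockout libraries, against 126, 140 and 121 in the Wt libraries (log2 difference -0.20, SE 0.15, limma). Values without overlap were found for 6 of the 38 genes, these included, and for 11.0% of all tested genes.

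Pard6b and Cldn23 are given because they stood out after the values were seen. Pard6b, a Par polarity adaptor that binds atypical protein kinase C, had 347, 279 and 183 normalized counts in the knockout libraries, against 741, 771 and 239 in the Wt libraries. The Wt DM24 library lay below 2 of the knockout libraries, and the gene was also lower in DM24 than in DM22 libraries (log2 difference -1.21, limma, adjusted p = 0.0388). Between the genotypes limma gave -0.98 with a standard error of 0.50 (adjusted p = 0.932), while DESeq2 called it with the replicate block (-0.996, adjusted p = 0.0153), with a code series term (-0.996, adjusted p = 0.00189) and in the DM22 libraries alone (-1.26, adjusted p = 1.02e-07). The same designs did not call it with limma (adjusted p = 0.374 for the block, 0.232 for the series term and 0.192 for the DM22 libraries) or with edgeR (adjusted p = 0.370 for the block and 0.225 for the series term). Cldn23, another claudin, had 11.6, 7.42 and 3.79 normalized counts in the knockout libraries, against 39.5, 31.6 and 13.0 in the Wt libraries. These values did not overlap, and the log2 difference was -1.73 with an SE of 0.58 (limma, adjusted p = 0.825). They rest on 13, 9 and 3 reads in the knockout libraries, against 47, 33 and 10 in Wt. Cldn20, the other tested claudin of this list without overlap, lay the other way. It had 16.1, 14.8 and 21.5 normalized counts in the knockout libraries, against 10.9, 4.79 and 10.4 in Wt (log2 difference 0.98, limma, adjusted p = 0.904). Between the code series, limma called 3 of the 38 genes, beside 6.75% of all tested genes (4.07% lower), so the share is near that of all genes. The 3 were lower in DM24: Cgnl1 (paracingulin, -0.96, adjusted p = 0.0277), Mpp5 (Pals1, a polarity scaffold, -0.59, adjusted p = 0.0342) and Pard6b.

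The genes whose profile over the 6 libraries was nearest to that of Cldn1, by the root mean square difference of log2 values centred on each gene's own mean, were Fgd6 (0.0339), 0610011F06Rik (0.0408) and Golph3 (0.0479), beside a median of 0.216 over 11867 candidates. Those nearest to Tjp1 were Krit1 (0.00957), Htra2 (0.0122) and Araf (0.0132), beside a median of 0.162. The 6 libraries are few and share their size factors and code series with every gene, so this is a description of these libraries.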

How the data were processed

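RNA-seq was compared between 3 Yap knockout and 3 Wt libraries. Per the labels' protocols RNA was purified on Qiagen RNeasy Plus columns and libraries were made with TruSeq RNA v2, a kit that does not mark strand. The submitters' processing notes name STAR 2.5, DESeq2 1.18.1 and the build mm10 (GRCm38); the counter, its annotation and strand setting are not given in the sources used here. The authors deposited 1 table of a signal, read counts divided by a size factor per library: 100% of its values were whole multiples of 1 step (tolerance 0.001 reads), which gave back the reads. Table columns were matched to libraries by the code in their names.

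The test was limma 3.58.1 in R 4.3.3 (mean-variance trend, robust prior) on log2(normalized count + 1), two-sided, knockout minus Wt, with Benjamini-Hochberg adjustment at 0.05 over the 13671 genes with a mean of at least 10. Fold changes on the log2(value + 1) scale understate the change of low genes. The alternatives on recovered reads were DESeq2 1.42.0 (no independent filtering) and edgeR's quasi-likelihood test (4.0.16, TMM scaling). Shares were compared by exact permutation (Python 3.11.15, scipy 1.17.1). The fits were also run on simulated counts that held no code series effect, so this run does not test the main fit under such an effect. Per-length levels used the union exon length of GENCODE M21 (GRCm38), and promoter letters came from RefSeq. The named other genes were, for each list, those called, or up to 3 with the largest difference among non-overlapping genes whose mean reached 50. Of 163 listed genes 157 were in the table, 4 by an older symbol. The members and lists were chosen with earlier results of these data known.

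Deviations from the group means correlated by 0.333, 0.327 and 0.694 between libraries of the same number, each above 0.1, so the replicate numbers were tried as a block. Crossed DM22 libraries gave 0.505 and 0.260, so numbers 1 and 2 are not shown to mark pairs. The labels do not state pairs. Alternatives were another pseudocount, filter or normalization, the block, the code series as a term, DM22 libraries alone and each library left out.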

Additional observations from a re-analysis of the deposited data

How the results depend on the processing

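No alternative called a member between knockout and Wt. Of 138 member values under settings that keep all libraries or the DM22 libraries, 127 kept their sign and 11 turned. Cldn4 turned to 0.029 (edgeR) and 0.055 (DESeq2) with a code series term and to 0.22 (limma) and 0.53 (DESeq2) in the DM22 libraries alone. In those libraries limma and DESeq2 also turned Cldn12 (0.048 and 0.059), Tjp1 (-0.052 and -0.042) and F11r (0.032 and 0.039), and quantile normalization turned Cldn7 (-0.066). With 1 library left out, 13 of 48 values turned, and the ranges were -0.20 to -0.019 for Cldn1, -0.59 to 0.67 for Cldn4, -0.22 to 0.47 for Cldn7, -0.60 to -0.25 for Cldn8, -0.22 to 0.17 for Cldn12, -0.15 to 0.21 for Ocln, -0.046 to 0.050 for Tjp1 and -0.090 to 0.058 for F11r. The differences in claudin share then ranged from -1.44 to 1.55 percentage points for Cldn4, -0.018 to 0.12 for Cldn7 and -0.60 to 1.63 for Cldn12, while counting the Cldn25 row turned that of Cldn1 to -1.69. DESeq2 called 67 genes without a term, 169 with the replicate block, 297 with a code series term and 265 in the DM22 libraries, where limma called 2. With 1 library left out limma called 0 to 1. The replicate block changed no call of a member with limma, edgeR or DESeq2. Among the other tight junction genes DESeq2 called 1 with the block, 2 with the code series and 1 in the DM22 libraries. Between the code series DESeq2 called 2056 genes, and with 1 library left out limma called 40 to 1492 genes and 0 to 2 members, Tjp1 ranging from -0.16 to 0.019. The causes were not tested. With 3 libraries a group, and 1 DM24 library in each, limma did not call even Yap1 (-2.63), so smaller changes of the members could be missed, and at 1 to 29 reads Cldn3 is limited by depth.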
